A study of Mus musculus with 3 samples.

Results

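Levels of 6 genes for germ cell RNA-binding proteins, Nanos2, Nanos3, Lin28a, Dazl, Ddx4 and Dnd1, were read in single cells of the neonatal mouse testis. They were picked by symbol from the 27998 genes of the deposited matrix, and all 6 were found there. The study compared 3 genotypes of CDK2, the cyclin-dependent kinase 2: the wild type Cdk2-WT (Cdk2 +/+), the heterozygote Cdk2-HET (Cdk2 +/YS) and the homozygous mutant Cdk2-Y15S (Cdk2 YS/YS). The Y15S allele replaces tyrosine 15, a residue whose phosphorylation inhibits the kinase. Each genotype was read as 1 library of whole testis cells from untreated males at postnatal day 3 (the protocol gives 3.5 days). All were born to heterozygous parents on a background of B6(Cg)-Tyrc-2J/J mixed with FVB/NJ. The sources used here do not give how many animals went into a library. No difference between genotypes has a replicate check, and every interval below covers counting error only. Since the allele is a point change, a 3′ tag count of Cdk2 does not check the labels.

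Germ cells regulate many of their genes after transcription, through proteins that bind messenger RNA. NANOS proteins are zinc finger factors that bring the CCR4-NOT deadenylase to bound messengers: NANOS3 protects primordial germ cells, and NANOS2 holds male germ cells out of meiosis and later maintains spermatogonial stem cells. DND1 binds RNA and works with NANOS2. LIN28A blocks the maturation of let-7 microRNAs and marks undifferentiated spermatogonia. DAZL promotes the translation of germ cell messengers, and DDX4, the mouse Vasa helicase, sits in germ granules where piRNAs act. Around birth the male germ cells are prospermatogonia, which leave a quiescent state and become spermatogonia in the first days of life.

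The sequences of the LIN28A and let-7 pair are shown because Lin28a differed most between the libraries. The 8 let-7 5p microRNAs of mouse in RefSeq (GRCm38.p6) share 1 seed, shown in capitals (bases 2 to 8) in let-7g. The longest annotated Lin28a 3′ UTR (2775 bases) holds the matching letters CTACCTC at 2 places, in capitals, 909 and 1547 bases after the stop codon (chr4:134005189-134005211 and chr4:134004551-134004573, minus strand, GRCm38).
mmu-let-7g-5p: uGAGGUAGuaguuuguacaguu
Lin28a match 1: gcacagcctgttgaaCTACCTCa
Lin28a match 2: gagatcgccacaaacCTACCTCa
Of 1194 mouse 3′ UTRs within 10% of that length, 162 (13.6%) held at least 1 such match and 23 held at least 2. The longest 3′ UTRs of the other members held none, and those of Lin28b and Hmga2, textbook let-7 targets, held 4 each. The matches describe letters only, and this assay does not read mature let-7.

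Promoters are shown for Dazl and Ddx4, whose levels followed each other across the germ cell groups, and for Nanos3, which had UMIs in other cell classes as well. Each is the 250 bases before the RefSeq start on the minus strand (GRCm38.p6; chr17:50293621-50293870, chr13:112652311-112652560 and chr8:84176553-84176802). Motifs are in capitals where present: CACGTG, an E-box, and TTCCCGC or its reverse complement GCGGGAA, an E2F site, searched on both strands. They share no position in the Ddx4 window. The Nanos3 window lies wholly within the GENCODE M21 model of that gene, and the windows of Dazl and Ddx4 overlap theirs in part. Motif and CpG counts thus depend on the start used.
Dazl promoter: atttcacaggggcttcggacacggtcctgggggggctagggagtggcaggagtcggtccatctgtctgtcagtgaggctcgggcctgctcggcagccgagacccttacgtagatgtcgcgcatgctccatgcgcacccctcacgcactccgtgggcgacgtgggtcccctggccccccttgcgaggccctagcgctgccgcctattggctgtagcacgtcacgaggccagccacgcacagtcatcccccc
Ddx4 promoter: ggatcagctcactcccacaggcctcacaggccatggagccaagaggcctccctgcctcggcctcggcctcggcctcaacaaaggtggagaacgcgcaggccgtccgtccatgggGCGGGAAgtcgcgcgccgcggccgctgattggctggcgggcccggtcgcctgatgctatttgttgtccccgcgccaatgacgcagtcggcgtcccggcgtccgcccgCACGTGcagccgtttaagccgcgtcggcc
Nanos3 promoter: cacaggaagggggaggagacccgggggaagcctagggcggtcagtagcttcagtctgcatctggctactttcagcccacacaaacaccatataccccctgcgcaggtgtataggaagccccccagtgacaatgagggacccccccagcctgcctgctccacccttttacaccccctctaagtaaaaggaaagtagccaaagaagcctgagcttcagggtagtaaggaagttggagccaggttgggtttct
Ddx4 held 1 of each motif, and the windows of Dazl, Nanos3, Lin28a and Nanos2 held neither. The promoter of Dnd1, which also had UMIs in other cell classes, was left out. Among 27025 promoters of the same length, 6.05% held the E-box and 3.84% the E2F site. CpG dinucleotides, the sites of DNA methylation, numbered 31 in Ddx4 and 20 in Dazl, more than in 95.1% and 82.3% of these promoters. Lin28a had 7, Nanos3 3 and Nanos2 0, beside a median of 6.

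All 6 members are protein-coding genes (GRCm38, GENCODE M21): Lin28a at chr4:134003330-134018841, Nanos2 at chr7:18987400-18988962, Nanos3 at chr8:84173731-84185217, Ddx4 at chr13:112598333-112652475, Dazl at chr17:50279395-50293636 and Dnd1 at chr18:36763671-36766214. Nanos2 lies on the plus strand and the others on the minus strand. The Nanos3 model also holds the microRNA genes Mir181c and Mir181d on its own strand. The Dnd1 model overlaps Wdr55, which runs the other way, by 140 bases at its 3′ end. Lin28a and Nanos2 overlap the genes Gm13061 and Gm45058 on the opposite strand. The sources used here do not say whether the authors' counting used strand. How reads from these overlaps were assigned is thus not known, and their part in the counts was not tested.

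The matrix held 5061 wild-type, 4958 heterozygous and 4403 mutant cells, with medians of 5570 to 5908 UMIs per cell (unique molecular identifiers, each standing for 1 captured molecule). The authors deposited 141 germ cells in 5 clusters, A to E: 69 of Cdk2-WT (36 in A, 28 in B, 5 in C) and 72 of Cdk2-Y15S (6 in B, 8 in C, 37 in D, 21 in E), and the germ cell table holds no cell of Cdk2-HET. Their medians were 16653 and 18461.5 UMIs and 11.4% and 10.2% mitochondrial UMIs. All 141 had UMIs of at least 5 of 18 germ cell markers that are not members. Markers of other cell types were present: Amh, a Sertoli cell hormone, stood at 14.8 and 12.8 CPM (summed UMIs of a gene per 1000000 UMIs of the group) in these wild-type and mutant cells, against 477 and 197 CPM in the other cells. Col1a1, a stromal collagen, stood at 42.9 and 89.2 against 402 and 877 CPM. Their part in the results was not tested. From 27 to 32 barcode sequences were shared by each pair of libraries.

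Lin28a was higher in the germ cells of Cdk2-Y15S. The 69 Cdk2-WT cells held 40 Lin28a UMIs, or 33.0 CPM (23.6 to 44.9), with the 95% exact Poisson interval in parentheses. The 72 Cdk2-Y15S cells held 99, or 70.6 CPM (57.4 to 86.0), so the intervals of the libraries did not overlap. The log2 ratio of Cdk2-Y15S over Cdk2-WT was 1.09 (0.56 to 1.67), with a conditional exact interval and 0.5 UMI added to each sum, above 97.0% of the 9736 genes with at least 20 UMIs. Of these genes, 3.21% were at least 2-fold higher with an interval above 0, 7.54% at least 2-fold lower with one below 0, and the median was -0.05. In the 35 mutant and 24 wild-type cells with at most 10% mitochondrial UMIs, the Lin28a ratio was 0.87 (-0.13 to 2.11), an interval that included 0, from 33 and 10 UMIs. A Lin28a UMI was found in 27 wild-type cells (39.1%, Clopper-Pearson interval 27.6 to 51.6) and in 53 mutant cells, 73.6% (61.9 to 83.3). Since depth differed, the share expected after thinning each cell to 13000 UMIs was also taken. It was 29.1% over 61 wild-type cells and 59.01% over 64 mutant cells, with 8 and 8 shallower cells left out. In Sertoli-like cells, a class that should lack the gene, 0.107% had a Lin28a UMI at a median of 6453 UMIs.

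Lin28a was also higher in the mutant within cluster B, which holds cells of both genotypes. There all 6 Cdk2-Y15S cells had at least 1 Lin28a UMI (16 UMIs, 108 CPM, 61.7 to 175), against 14 of 28 Cdk2-WT cells (22 UMIs, 40.1 CPM, 25.1 to 60.7). The log2 ratio within B was 1.44 (0.40 to 2.42), where 4.65% of 5309 genes had an interval above 0. The median depth of these cells was 22989 UMIs in the mutant and 18594 in the wild type. In the small cluster C the levels were 55.9 CPM in 8 mutant cells and 28.4 CPM in 5 wild-type cells, from 6 and 2 UMIs. The log2 ratio in C was 0.77 (-1.51 to 4.32) and its interval included 0, with 3.95% of 1619 genes above 0. Cluster A of Cdk2-WT was lowest at 26.9 CPM (15.4 to 43.7), while D and E of Cdk2-Y15S stood at 76.3 (56.3 to 101) and 56.1 (37.6 to 80.6). All 4 mutant groups thus had higher values than the 3 wild-type groups, though neighbours in that order, such as C of Cdk2-Y15S and B of Cdk2-WT, had overlapping intervals.

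**Figure D1:**
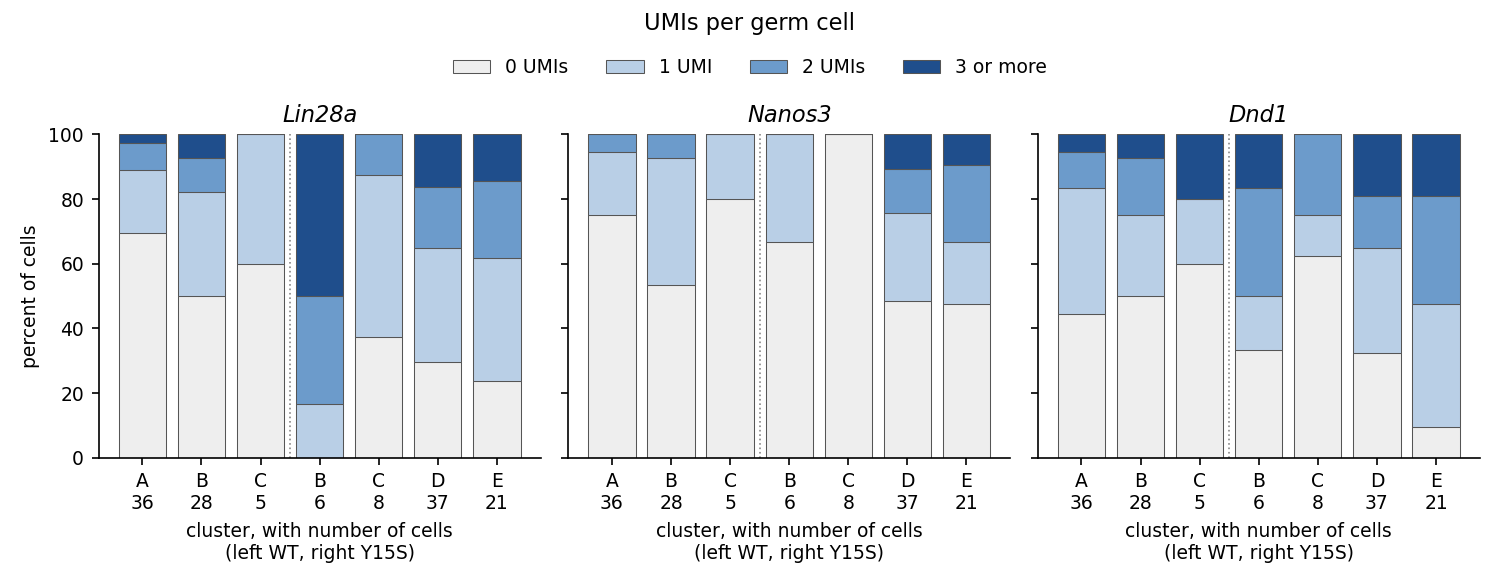
Stacked bars give the percent of deposited germ cells with 0, 1, 2 and 3 or more UMIs of Lin28a, Nanos3 and Dnd1 (vertical axis) in each cluster and library. For Lin28a, 25 of 36 cells in A of Cdk2-WT had 0 UMIs, against 0 of 6, 3 of 8, 11 of 37 and 5 of 21 in B to E of Cdk2-Y15S.

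Nanos3 was higher in Cdk2-Y15S over all deposited germ cells, and its point values were lower there in the clusters that hold both genotypes. It had 27 UMIs in Cdk2-WT, or 22.3 CPM (14.7 to 32.4), and 57 in Cdk2-Y15S, or 40.7 CPM (30.8 to 52.7). The log2 ratio was 0.86 (0.19 to 1.59), beside 13.7% of genes with an interval above 0. In cells with at most 10% mitochondrial UMIs it was 0.83 (-0.23 to 2.15). The share of cells with a UMI was 33.3% (22.4 to 45.7) and 44.4% (32.7 to 56.6), and 26.5% and 36.2% were expected at 13000 UMIs. Most of the mutant UMIs came from D (33 UMIs, 52.5 CPM, 36.1 to 73.7) and E (22 UMIs, 42.6 CPM, 26.7 to 64.4). In B the 6 mutant cells held 2 UMIs and the 28 wild-type cells 15, a log2 ratio of -0.75 (-4.19 to 1.08), and in C the counts were 0 and 1. With B and C alone, weighted equally, the log2 ratio of Cdk2-Y15S over Cdk2-WT was -1.20.

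Nanos2 was close to the limit of detection. The Cdk2-WT germ cells held 5 Nanos2 UMIs in 3 cells, or 4.12 CPM (1.34 to 9.62), and those of Cdk2-Y15S 7 in 6 cells, or 5.00 CPM (2.01 to 10.3). The shares of cells were 4.35% (0.906 to 12.2) and 8.33% (3.12 to 17.3). The log2 ratio was 0.24 (-1.59 to 2.28), an interval that allows a large difference either way. Nanos2 was the member with under 20 UMIs in these cells, and its values come from the full matrix, since the germ cell table of 10451 genes holds the other 5. By cluster its UMIs were 1, 4 and 0 in A, B and C of Cdk2-WT and 2, 0, 3 and 2 in B to E of Cdk2-Y15S. A difference between these groups was not detectable at this depth.

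Dnd1 was higher in Cdk2-Y15S over all deposited germ cells, by less than Lin28a. It had 58 UMIs in Cdk2-WT, or 47.8 CPM (36.3 to 61.8), and 99 in Cdk2-Y15S, or 70.6 CPM (57.4 to 86.0), so the intervals of the levels overlapped. The log2 ratio was 0.56 (0.08 to 1.06), and in cells with at most 10% mitochondrial UMIs it was 0.16 (-0.51 to 0.88). A Dnd1 UMI was found in 52.2% (39.8 to 64.4) and 70.8% (58.9 to 81.0) of cells, with 44.3% and 60.4% expected at 13000 UMIs. Cluster E, with a median of 23755 UMIs, had the highest share, 19 of 21 cells. At 13000 UMIs its expected share was 64.5%, beside 61.3% in D. The log2 ratio of Cdk2-Y15S over Cdk2-WT was 0.66 (-0.60 to 1.74) within B and -0.61 (-2.73 to 1.51) within C, both including 0, and -0.0079 with B and C weighted equally. Wdr55, whose 3′ end overlaps that of Dnd1, stood at 39.6 CPM in Cdk2-WT and 81.4 CPM in Cdk2-Y15S, and its part in the result was not tested.

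Dazl and Ddx4, the members with the most UMIs, were lower in the germ cells of Cdk2-Y15S. Every deposited cell had at least 1 UMI of each, and since the sources used here do not give how the cells were picked, these shares are no finding. Whether depth or these genes entered that choice is not known, and its part in their levels was not tested. Dazl had 1057 UMIs in Cdk2-WT, or 871 CPM (819.6 to 925), and 1081 in Cdk2-Y15S, or 771 CPM (726 to 819). Its lowest, median and highest counts per cell were 3, 13 and 49 against 3, 16 and 25, so single cells overlapped widely. The log2 ratio was -0.18 (-0.30 to -0.05), with 42.1% of genes lower still, so Dazl lay near the middle of all genes. Ddx4 had 267 UMIs in Cdk2-WT, or 220.1 CPM (194 to 248), and 214 in Cdk2-Y15S, or 153 CPM (133 to 175), with counts per cell of 1, 4 and 8 against 1, 3 and 7. Its log2 ratio was -0.53 (-0.79 to -0.26), with 22.4% of genes lower still, and 17% of genes had an interval below 0. The intervals of the libraries overlapped for neither gene.

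Within cluster B the direction was the same. Dazl stood at 855 CPM in Cdk2-WT and 688 CPM in Cdk2-Y15S, a log2 ratio of -0.31 (-0.64 to -0.0027). Ddx4 stood at 209.7 and 121 CPM, a log2 ratio of -0.76 (-1.59 to -0.06), where 4.75% of genes had an interval below 0. Both upper limits depended on the scaling. Scaling by the median ratio over genes, in place of total UMIs, subtracts a log2 shift of -0.08 within B. That brings both limits above 0. Within C the log2 ratios were -0.30 (-0.78 to 0.20) for Dazl and -0.40 (-1.35 to 0.57) for Ddx4, with 5.13% of genes below 0. Across the groups Dazl was highest in C of Cdk2-WT (937 CPM, 724 to 1192) and lowest in B of Cdk2-Y15S (688 CPM, 561 to 835). Ddx4 had the same highest group (269.6 CPM, 162 to 421) and the same lowest group (121 CPM, 71.9 to 192).

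**Figure D2:**
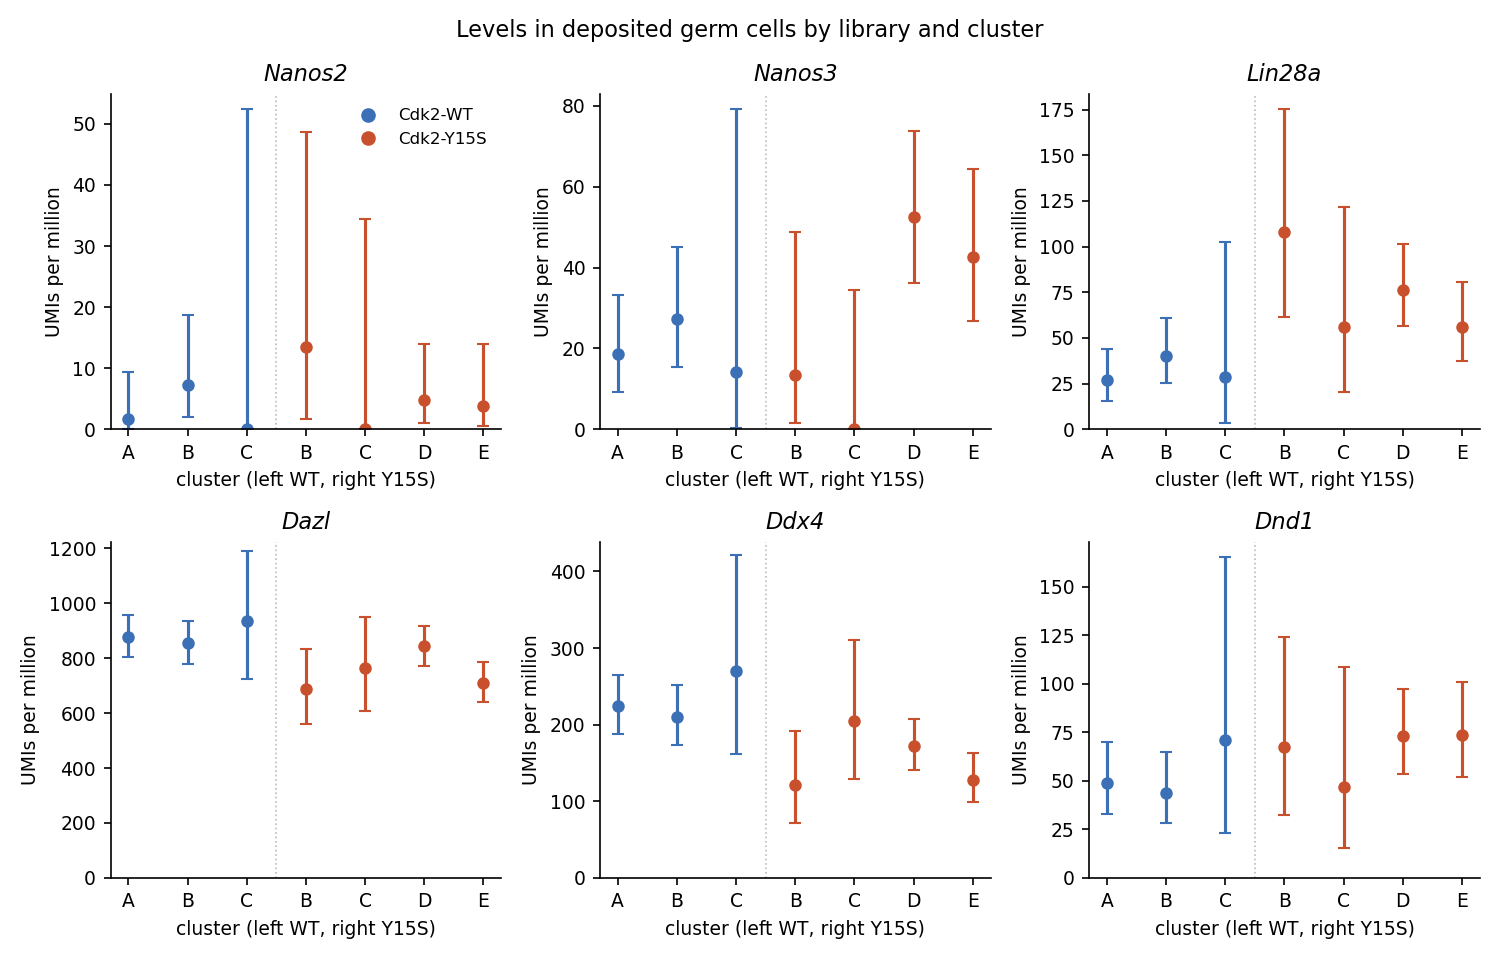
Points give the CPM (vertical axis, from 0, own scale per gene) of each member in the 7 groups of library by cluster, with exact Poisson 95% bars. Lin28a lies between 26.9 and 40.1 in Cdk2-WT and between 55.9 and 108 in Cdk2-Y15S, and the highest Nanos3 values are those of D and E.

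Large clusters of 1 genotype were also set side by side, as a description, since the clusters were made from these cells' genes. Between A and B of Cdk2-WT every member's interval included 0. The log2 ratio of B over A was 1.70 (-1.22 to 7.74) for Nanos2, 0.56 (-0.42 to 1.60) for Lin28a and 0.55 (-0.66 to 1.83) for Nanos3, intervals that allow differences as large as those between the genotypes. It was -0.04 (-0.22 to 0.14) for Dazl, -0.09 (-0.47 to 0.28) for Ddx4 and -0.15 (-1.001 to 0.67) for Dnd1. Of 7249 genes, 9.27% had an interval above 0 and 10.4% below. Between D and E of Cdk2-Y15S the interval left out 0 for Dazl alone, at -0.25 (-0.44 to -0.05) for E over D, with 4.99% of 6838 genes below 0 and 4.49% above. Ddx4 was at -0.42 (-0.89 to 0.03), Lin28a at -0.43 (-1.16 to 0.25), Nanos3 at -0.29 (-1.15 to 0.52) and Dnd1 at 0.01 (-0.65 to 0.66). D of Cdk2-Y15S against B of Cdk2-WT gave log2 ratios of 0.91 (0.17 to 1.73) for Lin28a and 0.91 (0.02 to 1.93) for Nanos3, with 9.82% of 7054 genes above 0 and 9.23% below. The intervals of the other 4 members included 0.

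Germ cells outside the deposited set were picked by their markers. Cells with UMIs of at least 4 of the 18 markers numbered 122 in Cdk2-WT, 68 in Cdk2-HET and 113 in Cdk2-Y15S, and 53 wild-type and 41 mutant cells of these lay outside that set, with medians of 5320 and 6242 UMIs. In them Lin28a had 7 UMIs (21.6 CPM, 8.68 to 44.5) and 21 (64.3 CPM, 39.8 to 98.2), a log2 ratio of 1.51 (0.29 to 3.05), where 10.3% of 5149 genes had an interval above 0 and 11.8% below. Nanos3 had 9 and 9 UMIs, a log2 ratio of -0.01 (-1.52 to 1.497), and Dnd1 25 and 23, a log2 ratio of -0.13 (-1.01 to 0.75). Dazl was at 857 and 796 CPM (-0.11, -0.36 to 0.14) and Ddx4 at 231 and 165 CPM (-0.48, -1.02 to 0.04). The deepest of the mutant cells held 50378 UMIs and 5 of Dazl. Without the deepest cell of each library the log2 ratio was 1.60 (0.36 to 3.15) for Lin28a, 0.05 (-0.20 to 0.30) for Dazl, 0.03 (-0.85 to 0.91) for Dnd1 and -0.32 (-0.86 to 0.20) for Ddx4, so the signs of Dazl and Dnd1 turned. These cells come from the same libraries and are no replicate of the genotypes. Of the 53 and 41 cells, 36 and 28 had UMIs of both Dazl and Ddx4, and 3 and 4 held at least 10000 UMIs. Every deposited cell had both genes and at least that depth.

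The heterozygote could be placed by the marker rule alone. Lin28a stood at 30.6 CPM (22.5 to 40.7) in Cdk2-WT (47 UMIs), 50.5 CPM (36.8 to 67.5) in Cdk2-HET (45 UMIs) and 69.4 CPM (57.6 to 83.0) in Cdk2-Y15S (120 UMIs). By summed UMIs Cdk2-HET was above Cdk2-WT, at a log2 ratio of 0.72 (0.10 to 1.34), with 8% of 9892 genes above 0 and 3.94% below. The step from Cdk2-HET to Cdk2-Y15S was 0.45 (-0.04 to 0.99), an interval that included 0. Under the median-ratio scaling, which subtracts -0.07 in this comparison, its lower limit lay above 0, so this reading depended on the scaling. The intervals of the levels of Cdk2-HET overlapped those of both other libraries. Summed UMIs weigh deep cells more, and with each cell weighted equally the mean CPM was 32.1, 37.6 and 70.0 in the wild type, heterozygote and mutant, a log2 ratio of Cdk2-HET over Cdk2-WT of 0.23. The shares of cells with a Lin28a UMI were 26.2% (18.7 to 35.0), 32.4% (21.5 to 44.8) and 61.1% (51.4 to 70.1). By both of these measures the heterozygote lay nearer to the wild type than to the mutant. At 13000 UMIs a cell the expected shares were 29.3, 50.3 and 58.0%, over 64, 33 and 67 cells with 58, 35 and 46 shallower ones left out, so the place of the heterozygote depended on the measure.

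By summed UMIs, the point value of Cdk2-HET for Nanos3, Dnd1, Dazl and Ddx4 stood nearer to that of Cdk2-WT than to that of Cdk2-Y15S. Nanos3 was at 23.4, 19.06 and 38.2 CPM in the wild type, heterozygote and mutant, and Dnd1 at 54.0, 46.0 and 70.6 CPM. As log2 ratios, Cdk2-HET over Cdk2-WT gave -0.27 (-1.22 to 0.57) and -0.22 (-0.81 to 0.32), and Cdk2-Y15S over Cdk2-HET gave 0.97 (0.22 to 1.87) and 0.61 (0.10 to 1.17), beside 9.99% of 9809 genes with an interval above 0. Dazl was at 868, 872 and 776 CPM and Ddx4 at 222, 191 and 155 CPM, in the same order of libraries. Cdk2-HET over Cdk2-WT gave 0.01 (-0.12 to 0.14) for Dazl and -0.22 (-0.50 to 0.05) for Ddx4, and Cdk2-Y15S over Cdk2-HET gave -0.17 (-0.30 to -0.04) and -0.30 (-0.58 to -0.01), where 1870 of the 9809 genes had an interval below 0. Under the median-ratio scaling, which subtracts -0.07 from Cdk2-Y15S over Cdk2-HET, the upper limits of Dazl and Ddx4 lay above 0. Nanos2 had 7, 1 and 7 UMIs. Cdk2-Y15S over Cdk2-WT gave 0.70 (0.10 to 1.33) for Nanos3 and 0.38 (-0.03 to 0.81) for Dnd1 in these cells, with 14.9% of 10373 genes above 0 and 19.6% below. The interval of Dnd1, which left out 0 in the deposited cells, included 0 here. The part of it below 0 was smaller than the median-ratio shift of -0.03, so this too depended on the scaling. Median depths were 13481, 12592.5 and 15222 UMIs. For Ddx4 and Nanos3 the place of the heterozygote depended on the measure. With each cell weighted equally, Ddx4 was at 238, 211 and 190 CPM, in the same order of libraries. At 13000 UMIs a cell, expected shares were 92.4, 88.0 and 85.4% for Ddx4 and 25.3, 32.2 and 34.9% for Nanos3. By these values the heterozygote lay nearer to the mutant. Nanos3 with cells weighted equally, and Dnd1 and Dazl by both measures, stayed nearer to the wild type.

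**Figure D3:**
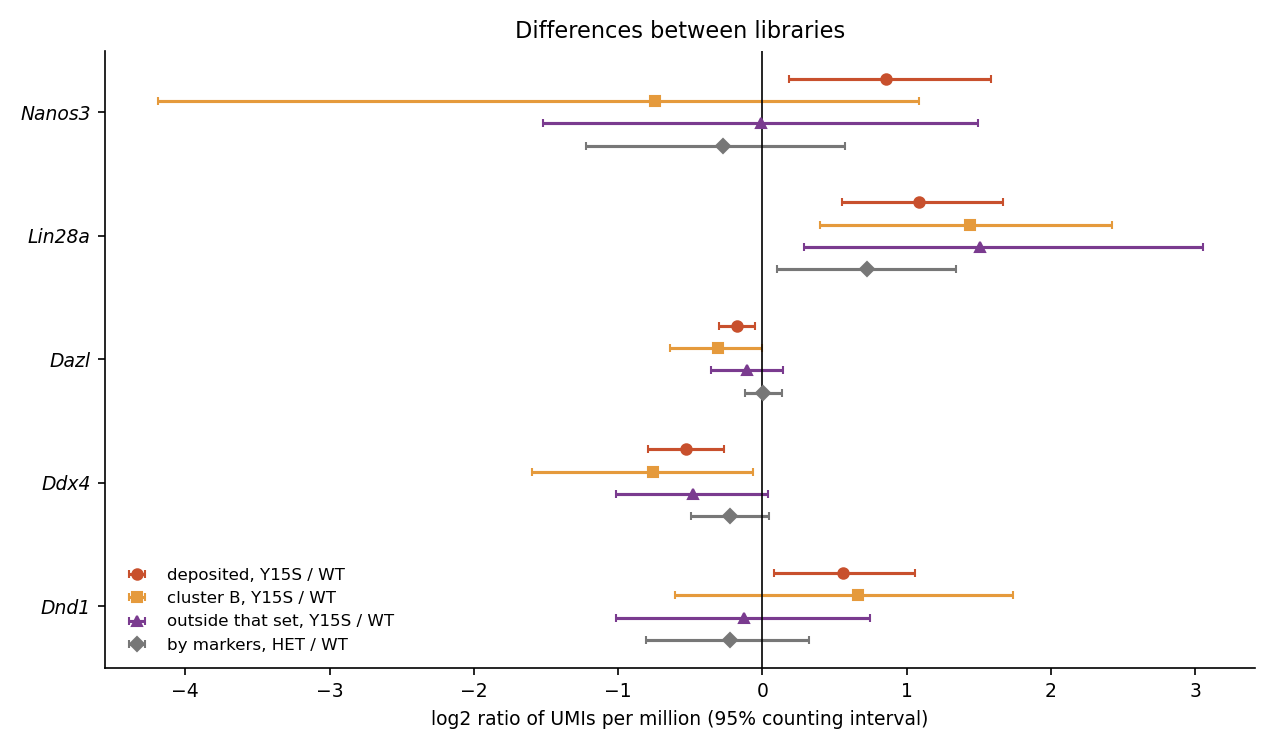
Points give the log2 ratio of CPM between libraries for 5 members (Nanos2 has too few UMIs), with conditional exact 95% bars, in all deposited germ cells, cluster B, marker-positive germ cells outside the deposited set, and Cdk2-HET over Cdk2-WT by markers. The 4 Lin28a bars lie above 0 (1.09, 1.44, 1.51 and 0.72), and those of Nanos3 and Dnd1 lie above 0 for the deposited cells alone.

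Outside the germ cells the members fell into separate kinds. With cells of 4 or more germ cell markers left out, Lin28a, Dazl and Ddx4 had 1, 22 and 8 UMIs over 2159 Sertoli-like cells of Cdk2-WT (0.0687, 1.51 and 0.550 CPM). The deposited Cdk2-WT germ cells stood higher by 479.7-fold (81.3 to 19417) for Lin28a, 576-fold (379 to 923) for Dazl and 400.3-fold (200.2 to 937) for Ddx4. Nanos2 had 0 UMIs in Sertoli-like cells. Against a floor of 3 UMIs per library, the germ cell point values were 19.99-fold higher in Cdk2-WT and 19.3-fold higher in Cdk2-Y15S. These folds rest on 5 and 7 germ cell UMIs and leave out their counting error, so they are no lower limits. Nanos3 was found at 5.29 CPM in 75 of these Sertoli-like cells (3.47%) and Dnd1 at 7.70 CPM in 108 (5.00%). For these genes the germ cells stood higher by 4.21-fold (2.61 to 6.60) and 6.21-fold (4.44 to 8.60). Median depths were 16653 UMIs in the germ cells and 6365 in the Sertoli-like cells.

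Set against Dazl, the germ cells of Cdk2-WT held 0.0255 Nanos3 UMIs per Dazl UMI and those of Cdk2-Y15S 0.0527. The Dnd1 ratios were 0.0549 and 0.0916. In Sertoli-like cells the Nanos3 ratio was 3.50, 4.11 and 2.39 in the wild type, heterozygote and mutant, and the Dnd1 ratio 5.09, 8 and 3.30, from 18 to 23 Dazl UMIs a library. The source of these UMIs was not tested.

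Across the other classes, Nanos3 was highest in the unnamed cluster led by hemoglobin genes, at 6.97 (3.81 to 11.7) CPM. It stood at 5.26 (2.12 to 10.8) in fetal Leydig-like, 5.13 (4.46 to 5.89) in Sertoli-like and 3.79 (0.783 to 11.1) in endothelial-like cells. It stood at 3.59 (2.60 to 4.83) in peritubular myoid-like and 2.56 (1.98 to 3.25) in interstitial stroma-like cells. Each neighbouring pair in that order had overlapping intervals. Dnd1 stood at 17.3 (10.96 to 25.9) CPM in fetal Leydig-like cells (21 of 171 cells), 8.27 (7.41 to 9.21) in Sertoli-like, 7.47 (4.18 to 12.3) in the unnamed cluster and 3.78 (3.07 to 4.60) in stroma-like cells. It stood at 2.53 (0.306 to 9.14) in endothelial-like and 2.34 (1.55 to 3.38) in myoid-like cells. Among neighbours in that order, the fetal Leydig-like and Sertoli-like values alone were apart beyond their intervals. In fetal Leydig-like, Sertoli-like, stroma-like and myoid-like cells Wdr55 stood at 18.0, 21.8, 12.9 and 12.4 CPM. In 79 macrophage-like and 34 pericyte-like cells all 6 members were at 0, which allows up to 5.00 and 20.1 CPM.

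By library, Dnd1 in Sertoli-like cells stood at 7.70 (6.34 to 9.26) CPM in Cdk2-WT, 10.3 (8.68 to 12.1) in Cdk2-HET and 6.56 (5.17 to 8.22) in Cdk2-Y15S. Nanos3 stood at 5.29, 5.29 and 4.75 CPM. Different clusters held much of this class in each library: cluster 2 had 755 wild-type, 659 heterozygous and 58 mutant cells, and cluster 11 had 5, 39 and 428. Over all cells under 4 markers, Cdk2-HET over Cdk2-WT gave a log2 ratio of 0.41 (0.12 to 0.71) for Dnd1, beside 23% of 14422 genes with an interval above 0 and 12.2% below. Cdk2-Y15S over Cdk2-WT gave -0.18 (-0.52 to 0.16) for Dnd1, -0.02 (-0.40 to 0.36) for Nanos3 and 0.68 (0.12 to 1.26) for Dazl, beside 30.3% of 14415 genes above 0 and 19.3% below. The Dazl level in those cells was 1.55 CPM in Cdk2-WT and 2.49 CPM in Cdk2-Y15S, from 45 and 67 UMIs. The most in 1 cell were 4 and 8, and 3 and 5 cells held at least 2. Among those cells, 17 and 11 had UMIs of 2 or 3 germ cell markers, and their part was not tested.

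**Figure D4:**
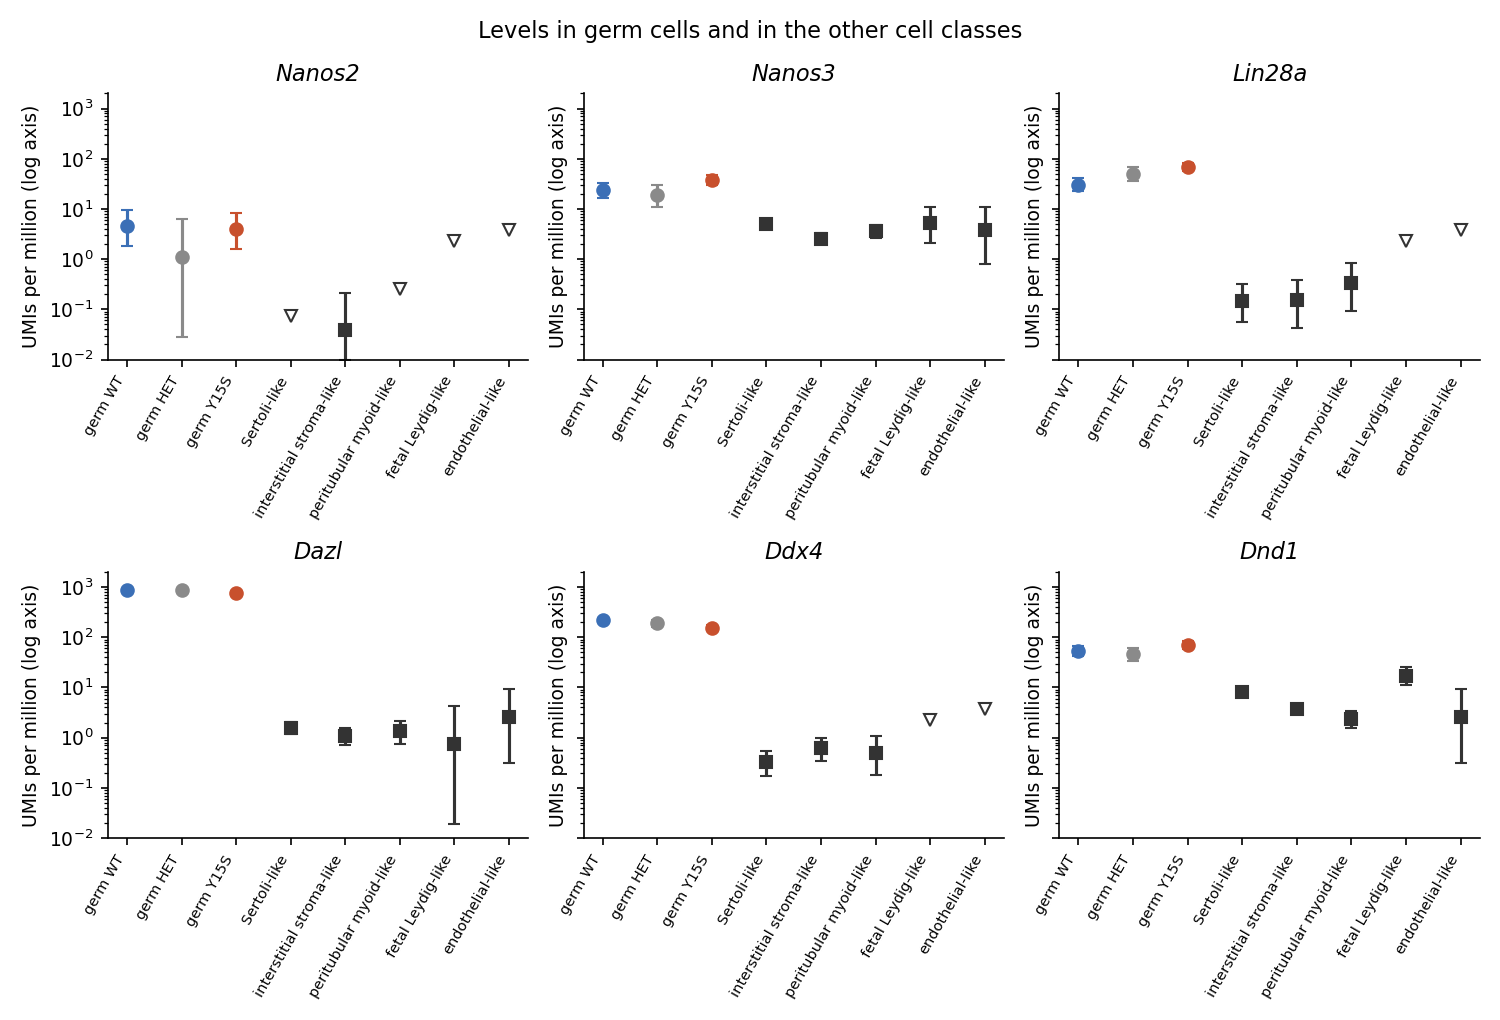
Points give the CPM (vertical log axis) of each member in marker-positive germ cells of the 3 libraries and in other cell classes pooled over libraries, with exact Poisson 95% bars; classes with 0 UMIs are marked at the level that 3 UMIs would give. Dnd1 reaches 17.3 in fetal Leydig-like cells beside 46.0 to 70.6 in germ cells, whereas Dazl stands at 1.57 in Sertoli-like cells beside 776 to 872.

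Among the sparse members, the UMIs of Lin28a and Nanos3 met in 12 of 69 Cdk2-WT cells and 25 of 72 Cdk2-Y15S cells, and those of Lin28a and Dnd1 in 15 and 37. At a common depth of 10000 UMIs, the expected share of Cdk2-Y15S cells with Lin28a was 52.3% where Nanos3 was also drawn and 49.7% where it was not, and in Cdk2-WT 30.2% and 25.5%. For Dnd1 with and without Lin28a the shares were 45.4% and 53.2% in Cdk2-Y15S and 38.5% and 37.1% in Cdk2-WT. In Cdk2-Y15S, Lin28a shares were 45.4% with and 56.8% without Stra8, the retinoic acid target that marks differentiating spermatogonia, and in Cdk2-WT 27.5% and 26.2%. Nanos3 was drawn in 22.1% of Cdk2-Y15S cells with the proliferation marker Mki67 and in 41.2% of those without, while in Cdk2-WT the shares were 19.7% and 17.6%. Other partners, among them Kit and the germ cell marker Gfra1, were also read. With and without them in Cdk2-Y15S, Lin28a shares were 48.9% and 51.5% for Kit, 51.3% and 49.7% for Gfra1, and 55.5% and 42.1% for Mki67. Nanos3 shares there were 32.0% and 27.4% for Kit, 34.0% and 25.3% for Gfra1, and 31.5% and 26.4% for Stra8. No interval was taken for these shares.

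Across the 7 groups of library by cluster, which share libraries and differ in depth, Dazl and Ddx4 moved together (Pearson's r = 0.91, n = 7 groups, on log2 of CPM plus 10). Lin28a moved against both, at -0.78 with Dazl and -0.83 with Ddx4, and Nanos3 had an r of 0.09 with Lin28a. Among 766 other genes with at least 100 UMIs and at least 3-fold higher in germ cells, those most like Lin28a were Mov10l1 (r = 0.95), a helicase of piRNA production, Smagp (0.91) and 5730508B09Rik (0.88). Smagp ran from 156 to 244 CPM in the Cdk2-WT groups and from 224 to 374 CPM in those of Cdk2-Y15S. Most like Nanos3 were Endog (0.97), a mitochondrial nuclease, Mpped2 (0.95) and Chchd4 (0.92), among 767 genes. For Dazl they were Ap2a1 (0.94), Rhebl1 (0.93) and Kdm5a (0.92), and for Ddx4 Ppp2r2c (0.96), Trim37 (0.95) and Scaf8 (0.93). For Dnd1 they were Gpn3 (0.93), Dusp9 (0.89) and Cmtm4 (0.89), and for Nanos2, at its few UMIs, Ccdc92 (0.96), Timm8b (0.94) and Ctu2 (0.93). With 7 points and this many candidates, such values are a description.

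Genes that work with the members were read from 6 lists, as log2 ratios of Cdk2-Y15S over Cdk2-WT in the deposited germ cells. Over all 9736 genes the median was -0.05, and 46.3% were above 0. Of the germ granule and piRNA partners of DDX4, 13 of 14 had at least 20 UMIs, with a median of -0.70. Of these, 10 were below 0, each with an interval below 0, against 17% of all genes, and 3 were above, 1 with an interval above 0, against 13.7% of all genes. Ddx25, a testis helicase, stood at 112 and 46.4 CPM in Cdk2-WT and Cdk2-Y15S, a log2 ratio of -1.27 (-1.72 to -0.84), and Tdrd7, a Tudor domain protein, at 31.3 and 13.6 CPM, a log2 ratio of -1.19 (-2.08 to -0.38). Mov10l1 was at 0.37 (0.06 to 0.68) and Pld6, a nuclease of the piRNA pathway on mitochondria, at 0.91 (-0.01 to 1.96). Of the 14 genes, 7 were also among the 18 germ cell markers.

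Of 14 genes on the CCR4-NOT list, the deadenylase that NANOS proteins recruit and its adaptors, 12 were below 0 and 5 had an interval below 0, beside that 17% of all genes, with a median of -0.25. The scaffold Cnot1 was at -0.66 (-0.98 to -0.35). Tob1, an adaptor that also restrains proliferation, had 39 and 10 UMIs, a log2 ratio of -2.12 (-3.34 to -1.14). Cnot11 (0.28) and Cnot8 (0.25) were highest, with intervals that included 0. The P-body and decapping list had a median of -0.08, with 5 above and 8 below 0 of 13. Its ends were the decapping enzyme Dcp2 at 0.70 (0.28 to 1.15), Patl1 at 0.12 (-0.59 to 0.85), the eIF4E-binding Eif4enif1 at -0.65 (-1.05 to -0.25) and the helicase Ddx6 at -0.37 (-0.83 to 0.09).

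The let-7 list had a median of -0.13, with 6 genes above and 9 below 0 of 15. Lin28b, the paralog of Lin28a, had 21 and 36 UMIs, a log2 ratio of 0.56 (-0.25 to 1.42), and Arid3a was at 0.52 (-0.29 to 1.38). The chromatin protein gene Hmga2, whose 3′ UTR held 4 let-7 matches, had 19 and 2 UMIs, a log2 ratio of -3.17 (-6.60 to -1.40). Zcchc6, a uridylyl transferase that acts on let-7 precursors, had 17 and 6, a log2 ratio of -1.64 (-3.34 to -0.30).

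On the list of DAZL and NANOS2 targets, 7 of 11 were below 0, with a median of -0.43. Stra8 had 32 and 306 UMIs, a log2 ratio of 3.03 (2.52 to 3.62), and Kit, the receptor of differentiating spermatogonia, was at 0.77 (0.23 to 1.34). The meiotic recombinase Dmc1 was at -0.99 (-2.17 to 0.07) and the stem cell factor Sall4 at -0.96 (-1.23 to -0.69). Among Nanos1 and other RNA-binding proteins, 8 of 18 were above 0 and 10 below, with a median of -0.17. Rbm46 stood at 0.99 (0.61 to 1.39) and Nanos1, the remaining member of the Nanos family, at 0.93 (0.32 to 1.61), while Msi2 was at -0.85 (-1.28 to -0.44) and Ddx25, which is on this list too, was lowest.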

How the data were processed

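Testis cells of 3 genotypes were read with 10x Genomics 3′ version 2 chemistry, per the labels' protocols. The deposited matrix holds counts, as whole UMIs per gene and cell, and the authors gave the cluster of each germ cell. Cell Ranger 2.1.0, Seurat and mm10 are named in the submitters' processing notes, while cell calling, annotation and strand were not given in the sources used here. Levels are UMIs summed over a group per 1000000 of its UMIs (Python 3.11.15, scipy 1.17.1). Ratios were computed for every gene, counted from 20 UMIs. The interval was tested on simulated Poisson counts, the kind of error it assumes. That test does not cover variation between cells, animals or libraries. With 1 library per genotype no test was made, and intervals and floors (3 counts) cover counting error only. Named were the 6 members, the 2 highest and 2 lowest of each list, and the 3 genes most like each member. Markers read beside them (Amh, Col1a1, Stra8, Kit, Gfra1, Mki67) and Wdr55 were chosen by role or overlap. Members and lists were chosen with earlier results of these data known.

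Other classes came from cells that passed 500 genes and stayed within 10% mitochondrial UMIs, without doublets by Scrublet (85, 83 and 53 cells), clustered by the Leiden method at resolution 1 on 2000 variable genes (scanpy 1.11.5) and named from fixed markers, so the names are rebuilt ones. A cluster of 246, 290 and 67 cells led by hemoglobin genes was left unnamed. No doublet call was applied to the deposited germ cells. The germ cell table equals the matrix for 10450 of 10451 genes. Alternatives were other scalings, 1 UMI added, per-cell means, low-mitochondrial cells, the top cell of each gene left out, 10% ambient RNA subtracted, other marker and count minimums, and thinning.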

Additional observations from a re-analysis of the deposited data

How the results depend on the processing

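Of 216 alternative values, 187 kept their direction or lay within counting error, 27 moved and 2 reversed. With clusters B and C alone, weighted equally, the log2 ratio of Cdk2-Y15S over Cdk2-WT became -1.20 for Nanos3, -0.0079 for Dnd1 and -0.30 for Dazl, from 6 and 8 mutant cells. That of Lin28a stayed between 0.87 and 1.17 over 9 alternatives, that of Ddx4 between -0.60 and -0.47 and that of Nanos2 between -0.17 and 0.93. In cells with at most 10% mitochondrial UMIs, B over A was -0.36 (-0.80 to 0.04) for Dazl and 0.44 (-0.32 to 1.12) for Ddx4. These values rest on 4 cells of B and 16 of A. E over D was 0.54 (-0.72 to 2.22) for Lin28a, from 22 and 6 UMIs. The ratio of Cdk2-Y15S over Cdk2-WT was 0.87 (-0.13 to 2.11) for Lin28a, 0.83 (-0.23 to 2.15) for Nanos3 and 0.16 (-0.51 to 0.88) for Dnd1, over 24 of the 69 wild-type cells. All of these intervals included 0, and the cause was not tested. Shares with a UMI are lower at lower depth by construction. At 13000 UMIs they were 59.01% for Lin28a and 88.2% for Ddx4 in Cdk2-Y15S. At 8000 UMIs they were, in wild type and mutant, 15.1% and 24.8% for Nanos3, 22.2% and 43.0% for Lin28a, 85.8% and 73.4% for Ddx4, and 31.5% and 42.0% for Dnd1. For Ddx4 every deposited cell had a UMI before thinning, and how the cells were picked is not known. Genes past 2-fold numbered 313 higher and 734 lower for Cdk2-Y15S over Cdk2-WT at 20 UMIs. Among genes with at least 50 UMIs they were 189 and 361, with 104 and 132 for B over A, 8 and 33 for E over D, and 73 and 18 for Cdk2-HET over Cdk2-WT. Without a filter 1110 were lower for Cdk2-Y15S over Cdk2-WT, 617 lower for B over A, 108 higher and 216 lower for E over D, and 362 higher for Cdk2-HET over Cdk2-WT. Leaving out the deepest germ cells outside the deposited set and weighting cells equally in Cdk2-HET over Cdk2-WT were chosen after seeing the data. No paired analysis was possible because each genotype has 1 library.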
